A study of Homo sapiens with 6 samples.

Results

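An HS. target is an Illumina probe that was designed against a UniGene cluster, a group of expressed sequences that had been read from cDNA libraries and had no gene name when the array was made. The array held 12646 of them among its 37879 targets, and 99 were well detected, with a detection p under 0.01 on all 6 arrays. These 99, which are 0.783% of the HS. targets, were chosen by that measured value, so their brightness is a description and not a result. The RNA came from HEK293T cells, an established human embryonic kidney line, held in prometaphase by nocodazole (50 ng/ml, for 15 h by the labels and a longer time by the methods) and precipitated with anti-FLAG antibody. Cells of the 3 control IPs carried the empty vector, and cells of the 3 Stau1 IPs carried plasmids that encode Stau155-FLAG, so the bait was a tagged protein made from a plasmid and both groups shared the drug and the antibody. The labels do not say whether the replicates were separate cultures, so the p-values cover the spread between these arrays, which may be technical.

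Staufen1 (Stau1) is an RNA-binding protein that recognizes double-stranded stretches of transcripts and takes part in their transport, translation and decay. In such an experiment, the comparison of Stau1 IP with control IP asks which RNAs came down with the tagged protein beyond those that stick to the beads or the antibody. Expressed sequence clusters without a name can be non-coding RNAs, unspliced or extended parts of known transcripts, or rare messages. Expressed sequence tags (ESTs) are single reads from 1 end of a cDNA clone, while FLJ, DKFZ and IMAGE entries are longer clone sequences from large cDNA projects.

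Probe sequences are shown for 5 of the 99, all of them targets with more signal on Stau1 IP arrays 1 and 3. The first 30 of 50 bases are given here in lower case, 5′ to 3′, as the array's designers wrote them. The first 4 belong to members with large differences described further on and a stated chromosome, and the last to a definition that matched a named gene. HS.538962, whose difference was as large, is not shown because the table gives it no chromosome. Among the 99, sequences were at hand only for HS.538962 and these 5, from a probe list given with the study. They therefore do not represent the 99.
HS.536748: ctgctggcagtgagaggctaaaatggccaa
HS.551137: agcctttgagagcaggcaaccatccaagct
HS.547601: caaagctgggtatgtgcttgaaggaatttt
HS.551538: agggcagctctgtgcatctgaggcctttgc
HS.475334: cagtccggagtgtaaagattggaaagcccc
The table placed these 5 probes on the minus strand of chromosomes 10, 9, 22, 7 and 11, in that order, and the build of that annotation was not stated. Between 23 and 29 of the 50 bases of each probe were G or C, from 46% for HS.547601 to 58% for HS.551538. The longest run of A had 4 bases, in HS.536748, and AATAAA, the usual polyadenylation hexamer, was in none of the 5 on the strand as written. No stretch of 20 bases was shared with any of 35116 RefSeq promoters of GRCh38.p14 on either strand. At 15 bases HS.536748 shared a stretch with 2 promoters, HS.475334 with 1 and the others shown with 0.

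Markers of the line were mostly present. Of 6 markers that the line can express, VIM, KRT8, KRT18, CDH2 and NEFM were detected on all arrays, while PAX2 was detected on none. The mitotic genes CCNB1, CDC20, PLK1 and AURKA were detected on all 6, and PTPRC, ALB, HBB, COL3A1, GFAP and CD3E, which mark other cell types, on 0. STAU1 itself was detected on 5 of the 6 and missed on control IP 1, where its signal of 2499 was not the lowest of the 6 (1857 to 3246), so for this target call and signal did not go together, and the table does not show why. Between 8114 and 9655 targets were detected per array, and the number of arrays limits the precision. Over the 99 targets the arrays numbered 2 stood apart from their groups, control IP 2 less so than Stau1 IP 2. Over the 99 targets the Pearson correlation of normalized values was 0.759 between Stau1 IP 2 and Stau1 IP 1 and 0.782 between Stau1 IP 2 and 3, but 0.950 between Stau1 IP 2 and control IP 1. That of control IP 2 was 0.958 and 0.938 to Stau1 IP 3 and 1, and 0.925 and 0.916 to control IP 3 and 1. Over the well-detected targets with an annotation, control IP 2 was at 0.979 and 0.978 to Stau1 IP 3 and 1. There it was at 0.978 and 0.972 to control IP 3 and 1, so it hardly stood apart. Stau1 IP 2 was there at 0.968, 0.949 and 0.940 to control IP 3, 1 and 2. To Stau1 IP 3 and 1 it was at 0.927 and 0.923, so its position was not particular to the 99. These are correlations across targets, which are not independent replicates, and brightness differences between targets raise all of them. Stau1 IP 1 and 3 correlated at 0.992 and control IP 1 and 3 at 0.962, so over these targets Stau1 IP 2 lay nearer the controls than its own group, and control IP 2 correlated best with a Stau1 IP array. Whether the labels of the arrays numbered 2 were exchanged was not tested, and every value by the labels rests on the labels as given. Each array numbered 2 is given singly in what follows, and no array was moved to another group.

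Detection was not equally frequent on the 6 arrays. On control IP 1, 2 and 3, 155, 214 and 163 HS. targets passed the threshold, and on Stau1 IP 1, 2 and 3 it was 215, 137 and 269. Stau1 IP 2 thus detected the fewest and Stau1 IP 3 the most, with control IP 2 next to Stau1 IP 1. Of the targets with an annotation, too, the smallest share passed on Stau1 IP 2 (31.6%) and the largest on Stau1 IP 3 (37.2%). In all, 12340 of the 12646 HS. targets were detected on no array. Another 35 were detected on control IP 2, Stau1 IP 1 and Stau1 IP 3 and on no other array, and 22 were missed on Stau1 IP 2 alone. As many as 35 were detected on Stau1 IP 3 alone, and 18 on Stau1 IP 1 and 3 alone. Such patterns were counted for HS. targets only. Among HS. targets the detection p followed the signal, so that the rule was in effect a signal threshold of its own on each array, between 149.7 on control IP 1 and 169.6 on control IP 2.

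On the inner side of the threshold, 7 members shared the highest detection p, and on the outer side 8 HS. targets shared the lowest. Of the former the 3 with the lowest mean signal are named here, and of the latter the 3 with the highest. From here on, the 6 signals of a target are given in the order of the replicate numbers 1, 2 and 3 within each group. Among the former, HS.543617 passed with a highest detection p of 0.0092, and had signals of 165, 172 and 167 with the empty vector and 189.7, 165 and 179 with Stau155-FLAG. HS.552008 and HS.534680 passed with the same highest p, on Stau1 IP 3 and Stau1 IP 2. Just outside, HS.193406 was missed on control IP 1 alone, with a detection p of 0.011. Its signals were 147, 277 and 179 in the controls against 296, 177 and 325 in the Stau1 IPs. HS.560357 and HS.559714 missed on Stau1 IP 1 and Stau1 IP 2 with the same p.

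Entries for a cDNA or mRNA made up a larger share of the 99 than of the other HS. targets. By the words of their definitions 52 of the 99, or 52.5%, were cDNA or mRNA entries, against 9.88% of the other 12547. Conversely, 4.02% of 1292 such entries were well detected, and 0.414% of 11354 ESTs. FLJ cDNAs made up 21 of the 99 and 3.22% of the others, DKFZ cDNAs 7 and 1.1%, and IMAGE or other entries 24 and 5.56%. These 24 include 4 predicted mRNAs of numbered loci, and no lengths were measured. ESTs read from the 3′ end were 53% of the other HS. targets and 16 of the 99, whereas ESTs from the 5′ end were 20.1% of the others and 19 of the 99. The last 12 were ESTs with no end stated. Definitions of the same kind need not be alike in length or quality, and no test was made on these shares.

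**Figure D1:**
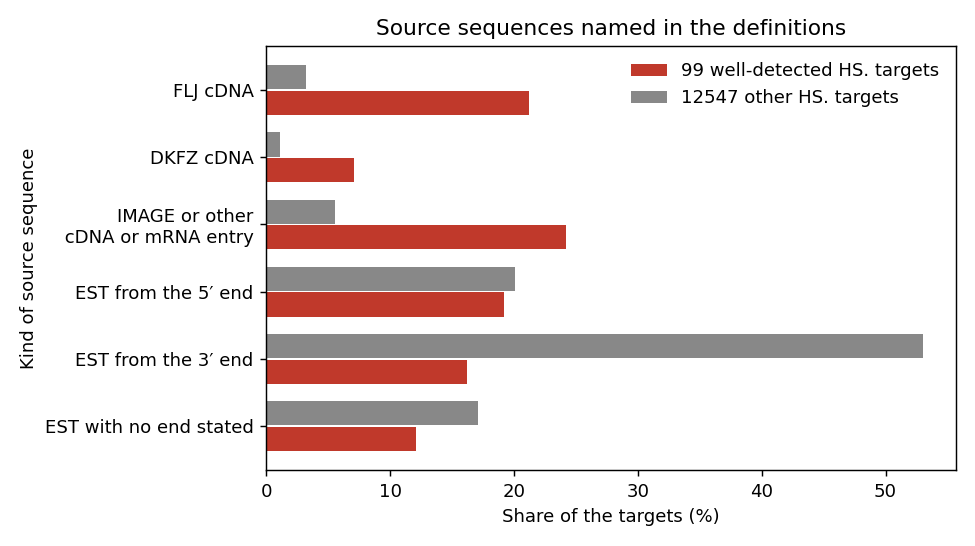
Share of targets (%) by the kind of source sequence that the definition names, for the 99 well-detected HS. targets (red) and the 12547 others (grey). FLJ cDNAs are 21.2% of the former and 3.22% of the latter, and ESTs from the 3′ end are 16.2% and 53%.

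None of the 99 had a gene symbol or an ontology term in the table, and all had a UniGene cluster. Of 37 definitions that held a clone or locus name, 3 matched a gene of RefSeq (GRCh38.p14) by symbol, synonym or gene ID. HS.19193 is a predicted transcript of LOC400043, now LINC02381, a long non-coding RNA gene on chromosome 12. HS.279842, defined as HSPC157 protein, belongs to LINC00339, which is now listed as a long non-coding RNA gene on chromosome 1. HS.475334, defined as KIAA0280, belongs to FAM168A, a protein-coding gene on chromosome 11. Chromosomes were given for 88 of the 99, which the table placed on 23 chromosomes, with 1 target on Y. These placements were not checked against a genome. Chromosome 1 held 12, chromosome 12 held 9 and chromosome 19 held 5, which are 12.1%, 9.09% and 5.05% of the 99. Of the other HS. targets 7.05%, 3.87% and 1.28% lay there, and of the annotated well-detected targets 9.73%, 5% and 7.4%, so that for chromosome 19 the 99 lay between both. By strand, 47 probes lay on the minus and 41 on the plus strand.

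The definitions also name the libraries of the clones, which are no measure of these cells. HS.562219 was read from embryonal kidney, HS.559564 from fetal brain, HS.126768, HS.527657 and HS.569104 from placenta, and HS.576633 from the T cell line Jurkat. HS.558212 carries the definition of a HeLa mRNA that turned up as a false positive of an interaction screen.

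Most of the 99 were dim. Their mean signal over the arrays ran from 167 for the dimmest to a median of 355, with 40 targets under 300 and 20 over 1000. By mean normalized value they ranked from 309th to 9090th of 37879, with a median rank of 6247. Their median signal was 284, 408 and 280.3 on control IP 1, 2 and 3, and 383, 256 and 427 on Stau1 IP 1, 2 and 3. The lowest medians were thus those of control IP 1, control IP 3 and Stau1 IP 2, and the highest those of control IP 2, Stau1 IP 1 and Stau1 IP 3. The 7314 annotated well-detected targets also had their lowest median on Stau1 IP 2, at 625, and their highest on Stau1 IP 3, at 849. After normalization Stau1 IP 2 was the lowest of the 6 arrays for 34 of the 99, and Stau1 IP 1 the highest for 27. The bead-to-bead standard error was small against these values, with a median of 3.21% to 4.26% of the signal per array and a median of 40 to 43 beads.

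**Figure D2:**
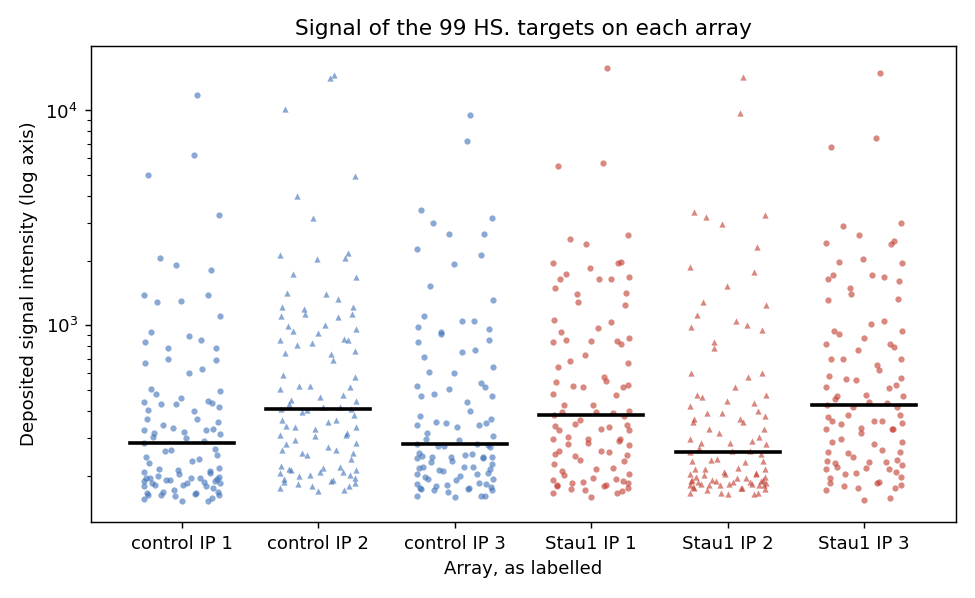
Deposited signal intensity (log axis) of each of the 99 HS. targets on each array as labelled, with control IPs in blue, Stau1 IPs in red, arrays numbered 2 as triangles and the median of the 99 as a black bar. The bars of control IP 2, Stau1 IP 1 and Stau1 IP 3 lie at 383 to 427, and the other bars at 256 to 284.

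The brightest was HS.579631, a 5′ EST placed on chromosome 19. Its signals were 5006, 14666 and 9575 with the empty vector and 15830.4, 9722 and 14953 with Stau155-FLAG. Every array held it far above background, and control IP 1 gave the lowest value. Here and below, signals are the deposited intensities, and differences are on the normalized log2 scale. HS.213061, the FLJ38536 clone on chromosome 1, was the next brightest by the mean normalized value, with 6189, 10109.8 and 7241 in the controls against 5526, 3354 and 6731 in the Stau1 IPs. Here Stau1 IP 2 was the lowest array and control IP 2 the highest, and the groups overlapped.

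HS.508682, a 5′ EST with no chromosome, split the arrays in another way. Its signals were 11757, 14171 and 3149 with the empty vector and 1644, 14325 and 3001 with Stau155-FLAG. Control IP 1, control IP 2 and Stau1 IP 2 were at 11757 to 14325, and the other arrays were at 1644 to 3149, although its bead standard error was between 2.2% and 2.5% of the signal on each array. HS.57079, the FLJ13267 clone on chromosome 10, varied far less. It had 3254, 3997 and 3424 in the controls against 2646, 3179 and 2895 in the Stau1 IPs, and the groups did not overlap.

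HS.497591, the FLJ41846 clone on chromosome 14, had 1918, 4936 and 3002 with the empty vector and 5678, 2321 and 7415 with Stau155-FLAG. It was highest on Stau1 IP 3 and 1, next on control IP 2, and Stau1 IP 2 lay between control IP 1 and 3. HS.294603, the FLJ12874 clone on the same chromosome, had 1279, 3149 and 2129.9 in the controls against 2513, 835 and 2628 in the Stau1 IPs. It was lowest on Stau1 IP 2 and highest on control IP 2. HS.163752, a 5′ EST on chromosome 19, had 2067, 1219 and 2273 with the empty vector and 849, 2966 and 910.1 with Stau155-FLAG, the lowest values being those of Stau1 IP 1 and 3. HS.544637, HS.430851 and HS.213541 were the others of the 10 brightest. All 3 stayed between 1293 and 2654 on all arrays.

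By the labels, none of the 99 passed the thresholds of the methods, a fold over 2.5 with an unadjusted p under 0.05. This held in either direction, and over all 37879 targets 0.00264% were called higher in Stau1 IP, which is 1 target, and 0% lower. Under the same thresholds the paper reports a far longer list of transcripts enriched in these IPs. The rebuilt steps did not return that list with the labels as given, and the cause of this difference was not tested. At an adjusted p under 0.05 in limma the count was 0 of the 99 and 0 of all targets, and with the methods' t-test it was 0 of the 99 too. At an unadjusted p under 0.05 and any fold, 3 of the 99 were higher and 4 lower, against 3.31% and 5.34% of all targets and 8.79% and 14.5% of the annotated well-detected ones. The arrays of the groups did not overlap for 3 targets that were higher in Stau1 IP and 5 that were lower, against 6.24% and 8.24% of all targets and 8.74% and 15.5% of the annotated well-detected ones. The shares of the 99 were 3.03% and 4.04% for the former rule and 3.03% and 5.05% for the latter, under all of these backgrounds. The median log2 difference of the 99, Stau1 IP minus control IP, was 0.05, and it was -0.02 for the 7314 well-detected targets with an annotation and 0.00 for all targets.

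The lowest unadjusted p of the 99 belonged to HS.556255, defined as clone TESTIS-609 on chromosome 11. It had 890.0, 1131 and 907 in the controls against 1243, 1241 and 1492 in the Stau1 IPs. All Stau1 IP arrays were above all control IP arrays, and the difference was 0.35 ± 0.05 (log2, SE, n = 3 and 3, unadjusted p = 7.2e-04 and adjusted p = 0.19 in limma). HS.57079, described above, fell on the other side, at -0.29 ± 0.07 (log2, SE, n = 3 and 3, unadjusted p = 0.0052 and adjusted p = 0.29 in limma). HS.534061, a full-length clone from neuroblastoma on chromosome 17, had 312, 336 and 243 with the empty vector and 166, 200.2 and 245 with Stau155-FLAG. The difference was -0.52 ± 0.13 (log2, SE, n = 3 and 3, unadjusted p = 0.0082 and adjusted p = 0.33 in limma), and on the normalized scale no Stau1 IP array reached the lowest control, while the deposited signals overlapped. The others with an unadjusted p under 0.05 were HS.311855 and HS.559564, which were higher, and HS.126768 and HS.534680, which were lower, and their differences ran from -0.25 to 0.22 on the log2 scale. Because of their p these 4 were picked after the values had been seen.

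The larger differences by the labels had wide errors. HS.536748, a 3′ EST on chromosome 10, had the highest, 0.90 ± 0.91 (log2, SE, n = 3 and 3, unadjusted p = 0.36 and adjusted p = 0.87 in limma). HS.556082 and HS.481464 followed at 0.74 ± 0.30 and 0.71 ± 0.29. The lowest was that of HS.580797, an EST with no end stated on chromosome 20, at -1.04 ± 0.84 (log2, SE, n = 3 and 3, unadjusted p = 0.26 and adjusted p = 0.82 in limma). Between these ends lay HS.551137, HS.579631, HS.19193, HS.497591 and HS.551538, at 0.51 to 0.68, and HS.508682, HS.213061, HS.163752, HS.558212, HS.538259 and HS.569104, at -0.94 to -0.35. HS.534061, given above, is the other of the 8 lowest.

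HS.558212 and HS.538259 were low on Stau1 IP 2 in particular. HS.558212 had 436, 474 and 335 in the controls against 339, 188 and 359.5 in the Stau1 IPs. HS.538259, an IMAGE clone on chromosome 1, had 507, 829.7 and 507 with the empty vector and 519.9, 269 and 569.6 with Stau155-FLAG. On the normalized scale the groups did not overlap for either, although the deposited signals did, and for HS.538259 Stau1 IP 1 and 3 were close to control IP 1 and 3. Over arrays 1 and 3 its difference was -0.10, against -0.46 by the labels.

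**Figure D3:**
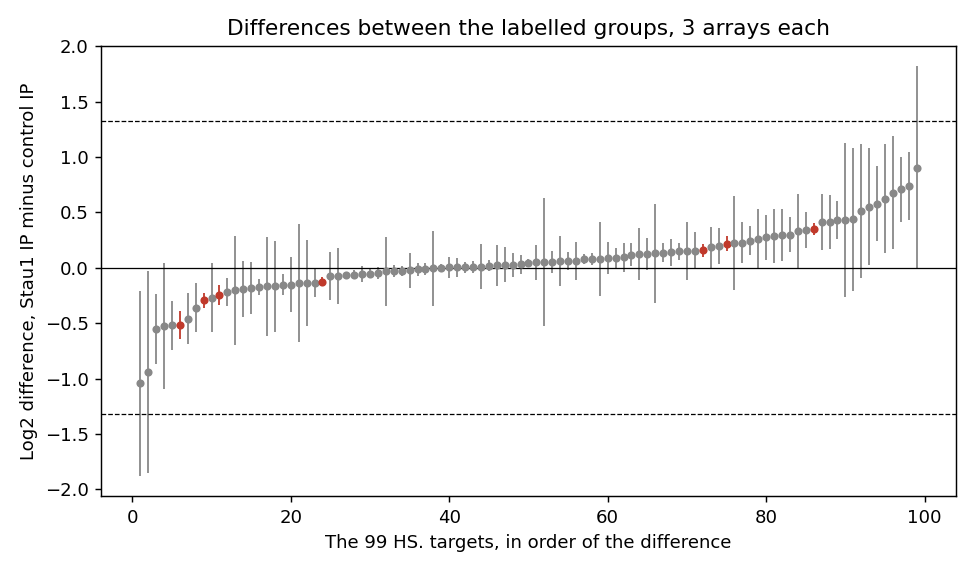
Log2 difference, Stau1 IP minus control IP by the labels, of the 99 HS. targets in order, with SE bars from limma (3 arrays against 3), a dashed line at 2.5-fold each way and targets with an unadjusted p under 0.05 in red. No point reaches a dashed line, and the 7 red points lie between -0.52 and 0.35.

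On arrays 1 and 3 alone, 7 of the 99 (7.07%) were over 2.5-fold higher in Stau1 IP and 3 (3.03%) were over 2.5-fold lower. Of all targets 0.61% were past that fold upwards and 0.0396% downwards, and of the annotated well-detected targets 2.21% and 0.15%. At an adjusted p under 0.05 in limma on these 4 arrays, 21 of the 99 (21.2%) were higher and 5 (5.05%) lower, against 3.35% and 2.05% of all targets and 10.6% and 8.7% of the annotated well-detected ones. The arrays numbered 2 were set aside with earlier results of these data known, so these p-values are not independent evidence of an effect of the bait, and with all 6 arrays no call remained. The signals of the arrays numbered 2 do not enter the 2 means of this difference. However, the other arrays were mapped on control IP 2 in normalization, and the 99 had to be detected on both arrays numbered 2. The position of these arrays is therefore not fully independent of the difference. The median difference of the 99 was 0.10 over arrays 1 and 3, and it was -0.01 for the annotated well-detected targets and 0.00 for all targets.

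**Figure D4:**
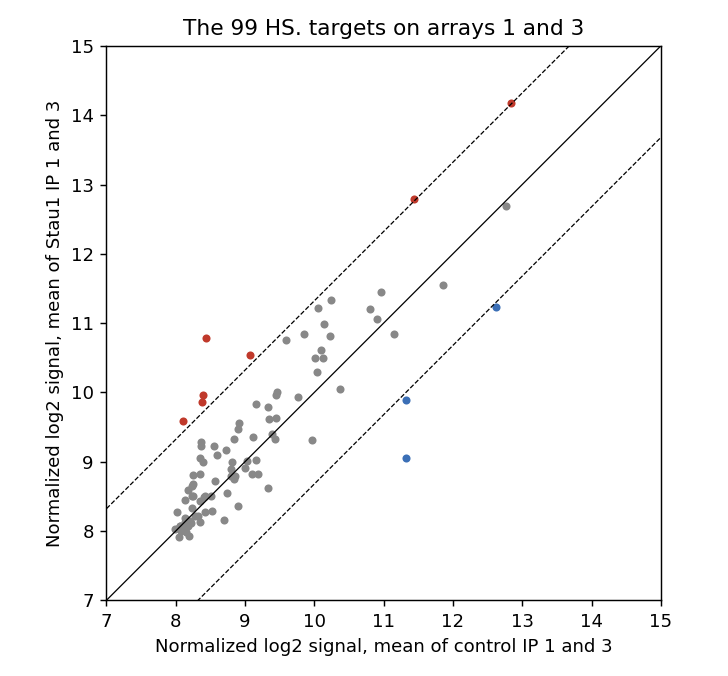
Mean normalized log2 signal on Stau1 IP arrays 1 and 3 against that on control IP arrays 1 and 3, for the 99 HS. targets, with equality as a solid line and 2.5-fold as dashed lines. The 7 red points are over 2.5-fold higher in Stau1 IP and the 3 blue points over 2.5-fold lower.

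HS.536748 had the largest such difference of the 99. Its signals were 188, 1006 and 273 in the controls against 1670.0, 181 and 1639 in the Stau1 IPs. Stau1 IP 1 and 3 were far above control IP 1 and 3, with control IP 2 between them, and Stau1 IP 2 was the lowest of all 6. The difference over arrays 1 and 3 was 2.36 ± 0.17 (log2, SE, n = 2 and 2, adjusted p = 0.013 in limma), a 5.13-fold ratio that ranked 36th of 37879. Its probe is the first of the sequences shown above.

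Another 4 targets were also high on control IP 2 and low on Stau1 IP 2. HS.538962, the DKFZp564C152 clone, had 198, 944 and 243 with the empty vector and 852, 190.3 and 1010.0 with Stau155-FLAG, and control IP 2 lay inside the range of Stau1 IP 1 and 3. The difference over arrays 1 and 3 was 1.57 ± 0.10 (log2, SE, n = 2 and 2, adjusted p = 0.011 in limma). HS.547601, a full-length insert clone, had 191, 742 and 248 in the controls against 837, 174 and 872 in the Stau1 IPs. For it control IP 2 lay under Stau1 IP 1 and 3 and Stau1 IP 2 under control IP 1 and 3, and the difference was 1.48. HS.551137, an EST from a melanocyte library, had 165, 418 and 182 with the empty vector and 668, 173 and 699.9 with Stau155-FLAG, with a difference of 1.48 ± 0.05 (log2, SE, n = 2 and 2, adjusted p = 0.007 in limma). HS.551538, the DKFZp761E1721 clone, had 302, 1126 and 478 in the controls against 1409, 302 and 1396 in the Stau1 IPs, with a difference of 1.47. The first 3 of these 4 were close to the detection threshold on control IP 1 and 3, at 165 to 248. With neqc, another background correction, all 4 were under 2.5-fold and HS.551137 came to 0.46 on the log2 scale. HS.536748, also near the threshold on control IP 1 and 3 at 188 and 273, stayed over 2.5-fold with neqc, at 1.63 against 2.36.

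The bright HS.497591 and HS.579631 complete the 7. Their differences over arrays 1 and 3 were 1.35 ± 0.23 (log2, SE, n = 2 and 2, adjusted p = 0.061 in limma) and 1.33 ± 0.34, just past the fold. With an adjusted p of 0.061 and 0.15 in limma, neither passed the threshold. Next under the fold came HS.556082, an IMAGE clone with a complete coding sequence on chromosome 16, at 1.17. Its signals were 477, 917 and 709 with the empty vector and 1639.8, 597 and 1604 with Stau155-FLAG.

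The 3 over 2.5-fold lower were all ESTs. HS.580797 had 1806, 1211 and 2657 in the controls against 383, 3273 and 469 in the Stau1 IPs. Stau1 IP 1 and 3 were far below all the other arrays, and Stau1 IP 2 was the highest of all. The difference over arrays 1 and 3 was -2.28 ± 0.18 (log2, SE, n = 2 and 2, adjusted p = 0.015 in limma), a 4.85-fold ratio and the lowest value of all 37879 targets in this comparison. HS.163752, given above, differed by -1.43 ± 0.06 (log2, SE, n = 2 and 2, adjusted p = 0.008 in limma), and Stau1 IP 2 was again the highest array. HS.508682 differed by -1.39 ± 0.65 with an adjusted p of 0.44 in limma, and its control IP 1 and 3 were themselves far apart. The next lowest were HS.569104, at -0.71, and HS.542993, at -0.65.

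For all 7 of the higher targets, the array labelled control IP 2 was nearer the mean of Stau1 IP 1 and 3 than that of control IP 1 and 3. Among the 162 annotated well-detected targets past the same fold this held for 77.2%. The array labelled Stau1 IP 2 was nearer the mean of control IP 1 and 3 for all 7, and for 98.1% of the 162. For the 3 lower targets, Stau1 IP 2 was nearer the controls for all 3, and control IP 2 was nearer Stau1 IP 1 and 3 for 1 of them, HS.163752. Among the 11 annotated well-detected targets over 2.5-fold lower, this held for 90.9% and 18.2%. HS.580797 had control IP 2 at 10.33 on the normalized log2 scale, between 11.33, the mean of control IP 1 and 3, and 9.05, that of Stau1 IP 1 and 3.

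**Figure D5:**
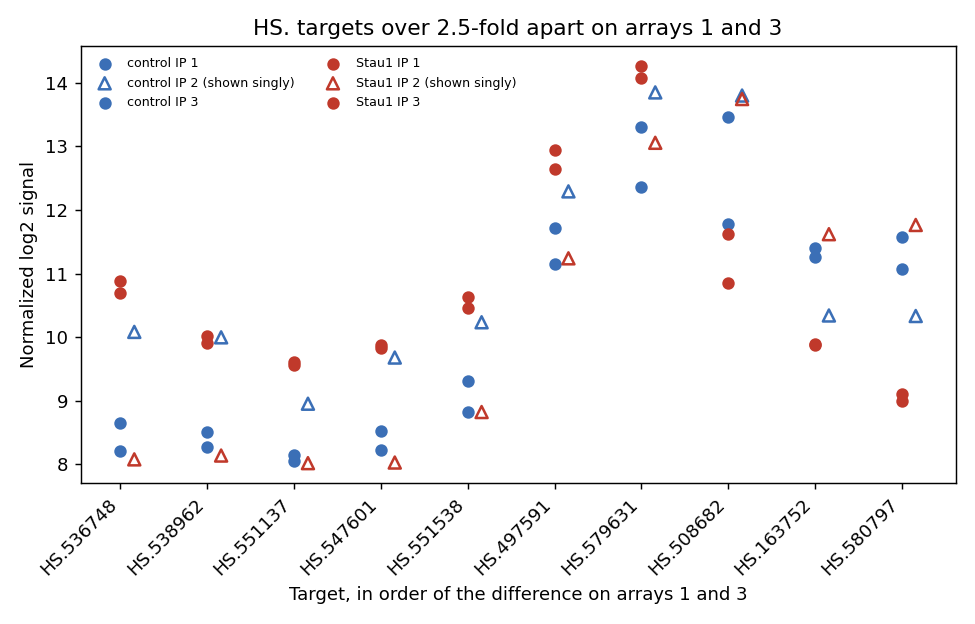
Normalized log2 signal of the 10 HS. targets over 2.5-fold apart on arrays 1 and 3, in order of that difference, with control IPs in blue, Stau1 IPs in red and the arrays numbered 2 as open triangles. For the 7 targets on the left, the blue triangle is nearer the red circles and the red triangle nearer the blue circles.

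Among the matched genes, HS.475334 of FAM168A had 694, 2054 and 768 with the empty vector and 1488, 389.9 and 1965 with Stau155-FLAG. The difference was 0.05 by the labels and 0.99 ± 0.10 (log2, SE, n = 2 and 2, adjusted p = 0.022 in limma) over arrays 1 and 3, with control IP 2 the highest array and Stau1 IP 2 the lowest. HS.19193 of LINC02381 had 857, 1680.1 and 1100.4 in the controls against 2392, 979 and 2386 in the Stau1 IPs, with differences of 0.58 by the labels and 1.09 ± 0.13 (log2, SE, n = 2 and 2, adjusted p = 0.029 in limma) over arrays 1 and 3. HS.279842 of LINC00339 had 314, 508 and 344 with the empty vector and 679.6, 297 and 652 with Stau155-FLAG, with 0.30 and 0.64. In all 3 the labels gave smaller differences than arrays 1 and 3 did. Apart from HS.19193 these were chosen for their match.

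The differences over arrays 1 and 3 were also counted by the kind of clone and by brightness, with no test. Of the 10 past 2.5-fold, 4 were cDNA entries, all of them higher, and 6 were ESTs, 3 each way. The median difference was 0.28 for the 52 cDNA or mRNA entries and 0.05 for the 47 ESTs. Of the 33 brightest targets 7 were past 2.5-fold, of the middle 33 there were 3, and of the 33 dimmest 0, where the median size of the difference was 0.10 on the log2 scale against 0.52 in the brightest. Each target had to be detected on every array, and brightness was the mean over these same arrays. A target with a large difference is thereby lifted out of the dimmest 33. These counts and sizes therefore follow in part from the rule and the ranking. The size of a dim target's difference moved with the background step, as for HS.551137, which came to 1.70 with no background correction and 0.46 with neqc.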

How the data were processed

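RNA from 3 control IPs and 3 Stau1 IPs was hybridized on Illumina BeadChips, and groups were taken from the labels. The authors deposited, per target and array, the signal intensity as BeadStudio gave it, without normalization, the bead standard error and bead number, and a detection p-value against the negative controls of the array. The methods name background correction, variance stabilization and robust spline normalization in other software. These steps were rebuilt in R 4.3.3 with mgcv 1.9.3, with the negative-control median taken from the 200 targets whose detection p was nearest 0.5. The transformation was fitted over 500 bins without the lowest 33.3% of signals, and arrays were mapped on control IP 2 by a spline with 10 knots. All 37879 targets were tested with limma 3.58.1, two-sided, with Benjamini-Hochberg adjustment over all of them. The steps were tested on simulated data in which no array strayed from its group. That test therefore does not cover arrays like those numbered 2. Named targets were the 10 brightest, those with the largest differences each way by the labels (8 and 8) and over arrays 1 and 3 (8 and 5), and 3 on each side of the detection threshold, picked by mean signal among those tied there. The members and lists were chosen with earlier results of these data known. Alternatives were neqc, quantile normalization, no background correction, fewer targets in the fit, the replicate block, the methods' t-test, other thresholds and leaving out arrays. The table holds no probe sequences, and the 5 shown came from a probe list given with the study. That list held sequences for only a few of the well-detected HS. targets, all with more signal on Stau1 IP arrays 1 and 3. The probes shown are therefore no neutral sample. The paper's supplement lists the transcripts that it scored as enriched in these IPs. Whether the probe list is that list was not checked, and if so its members were chosen by enrichment on these same arrays.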

Additional observations from a re-analysis of the deposited data

How the results depend on the processing

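At a detection p under 0.05 on all arrays 440 HS. targets were well detected, at a detection p of 0 there were 39, and leaving out each array gave 99 to 121. The count of the 99 higher in Stau1 IP at the thresholds of the methods was 0 with neqc, quantile normalization, no background correction, only well-detected targets, the replicate block and the methods' t-test, and so was the count of those lower. Without both arrays numbered 2, 7 were higher and 2 lower, and leaving out 1 array gave 0 to 1 higher and 0 to 2 lower, the highest counts being those without Stau1 IP replicate 2. At an unadjusted p under 0.05 and any fold the counts were 3 and 4. The median log2 difference of the 99 was 0.02 with neqc, 0.07 with quantile normalization, 0.09 with no background correction and 0.05 with the replicate block. Without both arrays numbered 2 it was 0.10, and leaving out 1 array gave 0.01 to 0.10. Same-numbered arrays deviated oppositely from their group means (r of -0.44, -0.77 and -0.36). Deviations within a group depend on each other, and the arrays numbered 2 stood far from their groups. These r therefore cannot show whether the numbers paired the arrays. With the block 4 of the 99 in place of 7 had an unadjusted p under 0.05 in limma.

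Past 2.5-fold on arrays 1 and 3 there were 5 higher and 3 lower with neqc and 6 and 3 with no background correction, and past 2-fold there were 10 and 3. The 5 with neqc were not all among the 7 named above. HS.536748, HS.497591 and HS.579631 were, while HS.19193 and HS.481464, at 1.45 and 1.44, were past the fold only with neqc. Differences by the labels changed sign for HS.294603, at 0.48 without both arrays numbered 2 and -0.46 to 0.25 without 1 array, and for HS.542993, at 0.032 with neqc and -0.55 to 0.075 without 1 array. Without 1 array the sign also changed for HS.544637 (-0.13 to 0.16), HS.213541 (-0.35 to 0.086) and HS.543617 (-0.040 to 0.040). Their causes were not tested. The signal over background limits the dim targets, whose differences moved with the background correction.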
